A study of Mus musculus with 2 samples.

Results

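Peaks of N4-acetylcytidine (ac4C) that lay in very long protein-coding genes of the mouse uterus were examined. A peak was taken when its summit fell on chromosomes 1 to 19 inside exactly 1 protein-coding gene whose RefSeq span, introns included, was 200 kb or more. The rule gave 2033 peaks in 448 genes, out of 21192 peaks in the whole list and 19144 autosomal peaks in a single protein-coding gene. The tissue was the whole uterus, from mice of wild-type genotype, taken on gestational day 4. There was 1 library of polyA RNA fragments pulled down with an antibody to ac4C and 1 input control library, so no value has a replicate check and no p-value is given. The labels give no strain, age or number of animals.

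ac4C is an acetyl group on the base cytidine, and in mRNA it is written by the acetyltransferase NAT10. It has been linked to the stability and translation of mRNA, and sites in cultured human cells were reported to lie in repeats of a C followed by any pair of bases. A very long gene owes its length mostly to introns, which are spliced out of the mature mRNA, while its exons are short and lie far apart. The last exon, which often holds much of the 3′ untranslated region, is commonly the longest. Exon positions were not used here, so a summit is placed only by its distance along the whole gene.

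The labelled tissue was checked against marker genes of its cell types. All 5 stromal markers (Hand2, Nr2f2, Hoxa10, Hoxa11 and Pgr), all 4 smooth muscle markers and all 3 endothelial markers held a peak. So did 3 of 4 epithelial markers, Epcam being the exception, and 2 of 3 leukocyte markers, Ptprc being the exception. Of 4 neuronal markers (Snap25, Syp, Tubb3 and Elavl4) 0 held one. For scale, 30.1% of all autosomal protein-coding genes held a peak, and the markers are few. Absence of a peak says nothing certain about absence of the transcript.

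RefSeq promoter windows were available for 336 of the 448 genes and show the sequence around annotated transcript starts. Each window runs from 250 bases before a start to 50 after it, on GRCm38.p6. A member peak touched 48 windows of 46 genes, and 5 summits lay inside one. The 6 stretches below are those of the 4 highest fold enrichments with at least 30 bases under the peak, and of both peaks whose summit lay inside the stretch. They run from 150 bases before the start to 30 from it onward, 5′ to 3′ on the strand of the gene. Capitals mark the longest run of CNN units, in which a C is followed by any pair of bases. Where runs were equally long, the first was marked.
Arid1b, chr17:4994924-4995103, plus strand: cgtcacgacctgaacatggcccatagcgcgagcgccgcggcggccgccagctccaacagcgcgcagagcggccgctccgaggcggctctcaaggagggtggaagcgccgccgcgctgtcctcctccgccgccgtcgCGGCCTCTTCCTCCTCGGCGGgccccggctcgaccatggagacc
Cmip, chr8:117256869-117257048, plus strand: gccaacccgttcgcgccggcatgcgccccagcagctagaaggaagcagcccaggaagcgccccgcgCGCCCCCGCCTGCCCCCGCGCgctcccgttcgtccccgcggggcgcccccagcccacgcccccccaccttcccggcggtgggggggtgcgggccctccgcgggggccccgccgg
Eif4g3, chr4:137993306-137993485, plus strand: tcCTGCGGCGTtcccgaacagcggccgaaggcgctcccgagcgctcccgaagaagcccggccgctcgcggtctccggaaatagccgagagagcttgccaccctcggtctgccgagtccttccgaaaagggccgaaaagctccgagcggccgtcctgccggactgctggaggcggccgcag
Ptprg, chr14:11553403-11553582, plus strand: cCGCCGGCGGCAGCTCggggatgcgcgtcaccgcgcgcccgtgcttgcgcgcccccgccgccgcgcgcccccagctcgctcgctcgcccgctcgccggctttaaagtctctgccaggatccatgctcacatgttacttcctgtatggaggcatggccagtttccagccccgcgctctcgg
Rere, chr4:150281766-150281945, plus strand: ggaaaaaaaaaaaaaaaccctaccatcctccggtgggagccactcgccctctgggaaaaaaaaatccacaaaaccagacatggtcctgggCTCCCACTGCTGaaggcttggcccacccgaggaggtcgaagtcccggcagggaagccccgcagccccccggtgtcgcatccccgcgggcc
Tacc2, chr7:130692468-130692647, plus strand: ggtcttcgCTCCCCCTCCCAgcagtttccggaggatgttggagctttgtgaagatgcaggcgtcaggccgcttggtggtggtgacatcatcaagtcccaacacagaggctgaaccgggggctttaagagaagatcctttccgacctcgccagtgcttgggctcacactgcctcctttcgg
The peaks over these stretches had fold enrichments of 18.5 for Arid1b, 17.0 for Cmip, 16.9 for Eif4g3, 16.2 for Ptprg, 15.0 for Rere and 5.62 for Tacc2. In the first 4 the summit lay downstream of the start, by 268, 228, 174 and 223 bases in that order. The summits of Rere and Tacc2 lay 48 and 33 bases upstream of the start shown, which is 1 of the annotated starts. The longest run counted 7 CNN units in Arid1b and Cmip, 5 in Ptprg, 4 in Rere and Tacc2 and 3 in Eif4g3. For another annotated start of Eif4g3, 1 base upstream, the stretch held a run of 4 units. The peak covered all 180 bases of the stretch in Arid1b, Cmip and Rere, 151 in Tacc2, 45 in Ptprg and 35 in Eif4g3. The marked run lay wholly under the peak in Arid1b, Cmip and Rere and wholly outside it in Eif4g3, Ptprg and Tacc2. In Eif4g3 and Tacc2, however, a later unmarked run of equal length lay under the peak. A run of 4 units (CNNCNNCNNCNN) occurred on the sense strand in 47 of the 48 windows touched (97.9%), against 74.9% of 20085 windows of autosomal protein-coding genes. On the opposite strand it occurred in 47 of 48 (97.9%), against 77.6% of all. The windows touched also held more G and C, with a median of 69.7% against 57.0%, and the part of base composition in the motif share was not tested. A match of letters is a description and marks no acetylated base.

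Peaks in very long genes were thinly spread over a large stretch of genome. Of 945 autosomal protein-coding genes with a span of 200 kb or more, 448 held a member peak (47.4%, 95% Wilson interval 44.2 to 50.6%), beside a background of 30.1% over all 20665 autosomal protein-coding genes. The share was 48.1% (45.5 to 50.7%) for genes of 100 to 200 kb and 23.3% (22.5 to 24.1%) for genes under 20 kb. A gene of 200 kb or more with a peak held 1.14 peaks per 100 kb of span, against 2.79 for genes of 100 to 200 kb and 24.3 for genes under 20 kb. Within the very long genes the share with a peak was 51.9% (47.1 to 56.7%) at 200 to 300 kb, 46.1% (40.6 to 51.6%) at 300 to 500 kb and 40.7% (34.4 to 47.4%) at 500 kb or more. Intervals of neighbouring classes overlapped. Of the 497 genes with no member peak, 16 held a summit that also lay in another protein-coding gene and was therefore left out.

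Just inside the span limit were Plcxd3 at 200.1 kb, with 0 peaks, and Pcbp3 at 200.3 kb, with 2 peaks of median fold enrichment 8.38. Just outside were Atp9b at 199.9 kb, with 1 peak at 3.64, and Sergef at 199.7 kb, with 0.

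The number of peaks per gene was uneven. A single peak was found in 134 genes, 2 in 80, 3 to 9 in 191 and 10 or more in 43. These 43 genes are 4.55% of the very long genes, beside a background of 1.32% of all autosomal protein-coding genes and 3.14% of genes of 100 to 200 kb. They held 759 of the 2033 peaks (37.3%). Among genes with a peak, the number of peaks showed no order with span (Spearman's rho = 0.0025 over 448 genes, which are not independent replicates). Among the genes with most peaks were Gse1 (69), Zmiz1 (43), Sdk2 (31), Nav2 and Nav1 (26 each), Ttc28 (25) and Tshz2 (22). Their spans ran from 209 kb in Zmiz1 to 651 kb in Nav2. Zmiz1 encodes a coactivator of nuclear receptors, Sdk2 an adhesion protein of the immunoglobulin family, Nav1 and Nav2 microtubule-associated neuron navigators, and Tshz2 a zinc finger transcription factor.

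**Figure D1:**
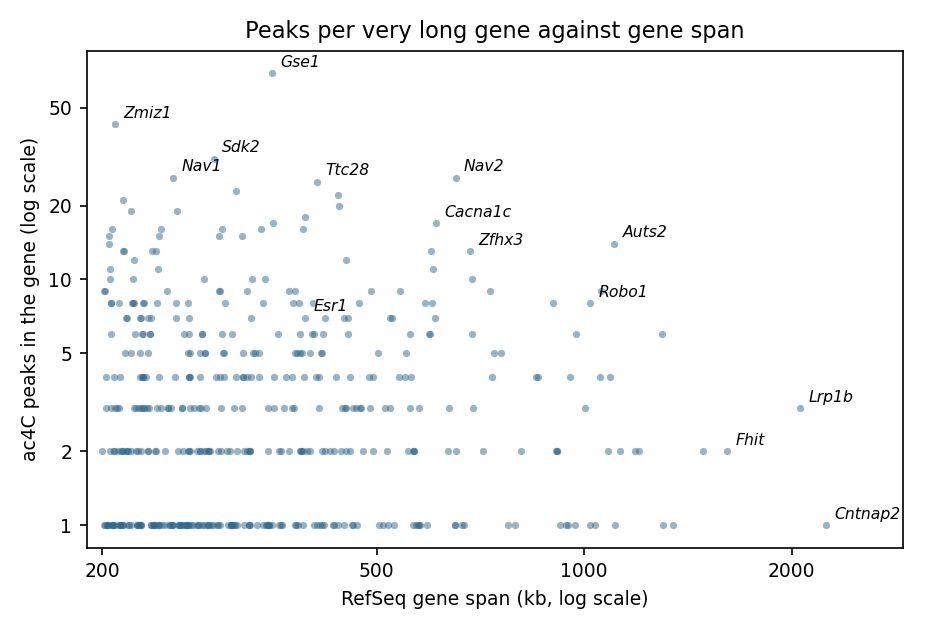
Number of peaks in each of the 448 very long genes with a peak (vertical, log scale) against the RefSeq span in kb (horizontal, log scale); each point is 1 gene. Gse1 with 69 peaks and Zmiz1 with 43 stand highest, while Cntnap2, the longest with a peak at 2241 kb, holds 1.

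The 5 longest genes with a peak held few peaks, all with the summit far inside the span except 1 of Magi2. Cntnap2 (2241 kb), which encodes a neuronal adhesion protein, held a single peak at chr6:46529289-46529621 with a fold enrichment of 5.60 (95% interval 3.93 to 7.76) on 34 fragments. Lrp1b (2058 kb), a member of the LDL receptor family, held 3 peaks at 6.83, 6.48 and 6.96 on 8, 14 and 9 fragments. Its summit at chr2:41746123-41746324 lay 907 kb from the nearer end, the farthest of all members. Fhit (1612 kb), a known tumour suppressor at a fragile site, held 2 peaks at 4.80 and 8.23, with summits 2053 bp apart. Magi2 (1485 kb), a scaffold protein of cell junctions, held 2 at 3.86 and 6.07, on 6 and 8 fragments, the first 7.83 kb from the 5′ end. Naaladl2 (1346 kb) held 1 peak at 5.19 (4.28 to 6.24), on 111 fragments. Apart from Naaladl2 and Cntnap2, the peaks of these genes had only 6 to 14 fragments at the summit.

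Summits were more frequent near the span ends than an even spread along the span gives. Within 5 kb of an end lay 404 of 2033 summits (19.9%, 18.2 to 21.7%), while that zone made up 3.19% of the spans, averaged over the peaks. The share was therefore 6.23 times that of the zone. Within 1 kb lay 145 summits (7.13%, against 0.638% of the spans), and within 10 kb lay 526 (25.9%, against 6.38%). Among peaks in genes of 100 to 200 kb the share within 5 kb was 26.8% (25.1 to 28.5%), which was 3.57 times that of the zone. It was 36.1% for genes of 50 to 100 kb, or 2.52 times, and 87.1% for genes under 20 kb, or 1.04 times, where the zone takes up most of the gene. Most summits of very long genes were nonetheless deep inside, at a median of 41.7 kb from the nearer end (interquartile range 9.28 to 93.9 kb). In 210 of the 448 genes (46.9%) every peak was farther than 5 kb from both ends, and in 50 genes every peak was within 5 kb of one. Genes with a single peak count in both groups and made up 38 of the 50.

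**Figure D2:**
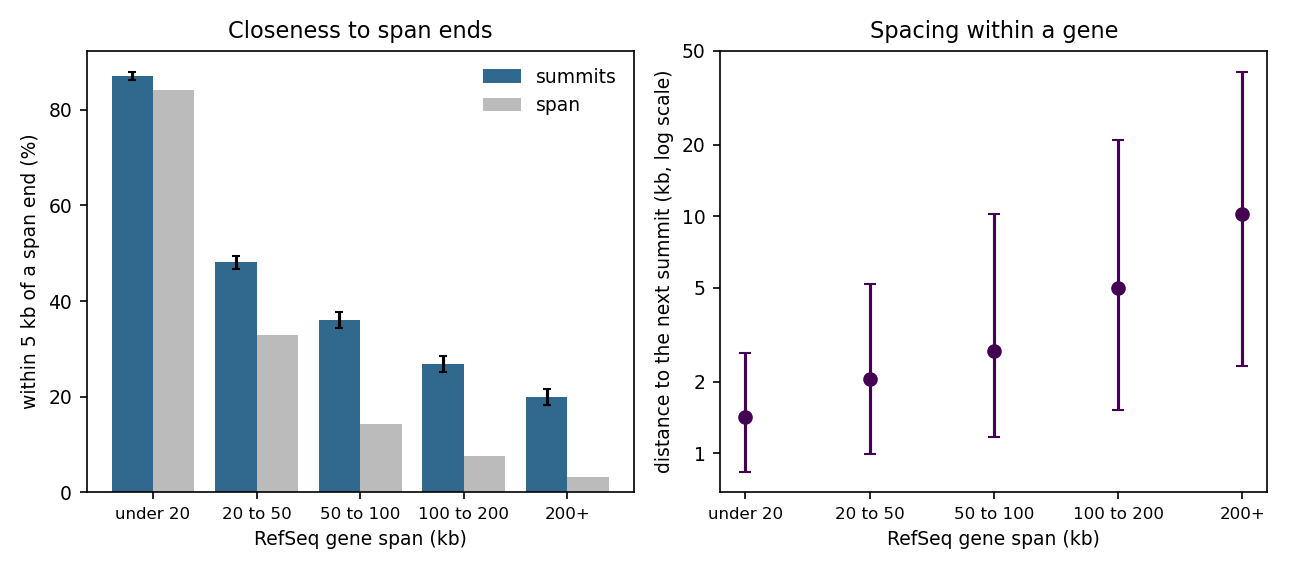
Left, share of summits within 5 kb of a span end (blue, with 95% Wilson intervals) beside the share of the span in that zone (grey), for 5 classes of gene span in kb. Right, distance from a summit to the next in the same gene in kb (log scale; point, median; bar, interquartile range). In the longest class 19.9% of summits lay in a zone of 3.19% of the span, and the median spacing was 10187 bp.

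The strand of the gene, taken from the promoter table, was available for 1568 of the 2033 peaks (77.1%) in 336 genes, which allowed the 5′ and 3′ ends to be told apart. These are the ends of the RefSeq span, and the 5′ end is not always a listed transcript start. In 243 of the 336 genes an annotated start lay within 1 kb of it. Within 5 kb of the 5′ end lay 128 summits (8.16%, 6.91 to 9.62%) and within 5 kb of the 3′ end 168 (10.7%, 9.28 to 12.3%), beside 1.58% of the span for either zone. At 1 kb the order was the other way round, with 73 summits at the 5′ end (4.66%, 3.72 to 5.81%) and 29 at the 3′ end (1.85%, 1.29 to 2.64%). At 10 kb there were 137 and 252. Of the 128 summits within 5 kb of the 5′ end, 73 were thus within 1 kb, against 29 of 168 at the 3′ end. Divided into 10 equal parts from 5′ to 3′, the spans held 12.1% of summits in the first part, 4.08% and 4.02% in the second and the third, and 31.8% (499 summits) in the last. The 3′ side of the midpoint held 68.6%. In genes of 100 to 200 kb the first and last parts held 11.4% and 31.8%, close to the very long genes, and in genes under 20 kb 9.62% and 17.0%.

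**Figure D3:**
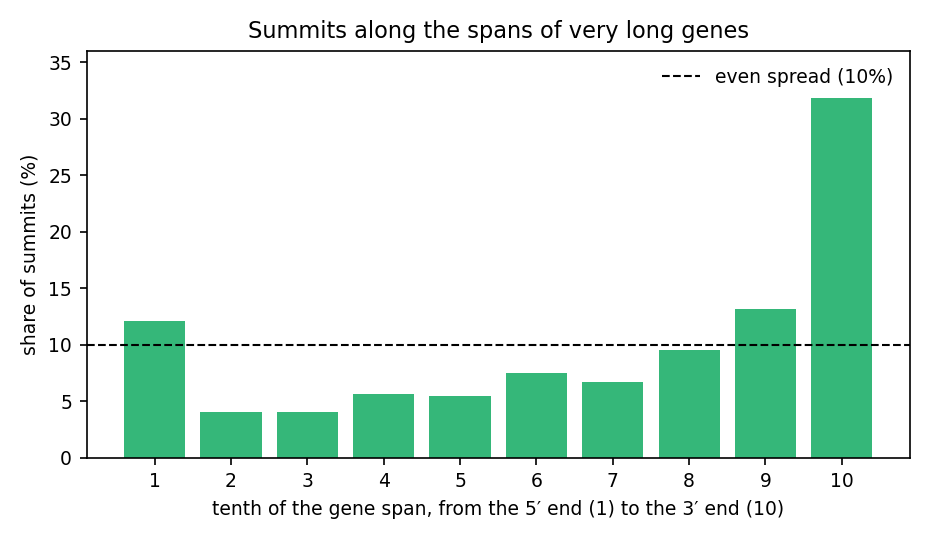
Share of the 1568 summits with known gene strand (vertical, %) in each of 10 equal parts of the gene span, from the 5′ end (1) to the 3′ end (10); the dashed line marks an even spread. The last part holds 31.8% and the first 12.1%, with 4.02% to 13.1% in the others.

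By gene, 186 of the 336 (55.4%) had a summit in the last part, 134 (39.9%) in the first and 63 in both. The 134 genes with a single peak carried weaker evidence, with a median of 11.5 fragments against 20 over all members. Of their summits 38 (28.4%, 21.4 to 36.5%) lay within 5 kb of an end. Among the 103 with known strand, 30 (29.1%, 21.2 to 38.5%) lay in the first part and 24 (23.3%, 16.2 to 32.3%) in the last, with overlapping intervals.

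Peaks at the 5′ end stood on a lower background than those at the 3′ end. Background is the fragment number that the authors' peak caller expected at the summit. Its median was 1.21 at the 5′ end, 4.33 at the 3′ end and 2.63 in between. The median fold enrichment was 6.28 (interquartile range 4.91 to 8.09), 4.94 (3.74 to 6.61) and 5.41 (4.36 to 7.01) in the same order. Peaks at the 5′ end rested on the fewest fragments, with a median of 13, against 26 at the 3′ end and 20 in between. At or above 10-fold stood 23 of 128 peaks at the 5′ end (18.0%, 12.3 to 25.5%), 11 of 168 at the 3′ end (6.55%, 3.70 to 11.3%) and 119 of 1272 in between (9.36%, 7.88 to 11.1%), beside a background of 9.50% over all autosomal peaks in a single protein-coding gene. The part of the background in this order was not tested. Widths were 332.5 bp at the 5′ end, 367 bp at the 3′ end and 277 bp in between.

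Neighbouring summits of the same gene were far apart in most cases and close in some. Over 1585 pairs the median distance was 10187 bp (interquartile range 2339 to 40840 bp), from 266 bp to 700 kb. In genes of 100 to 200 kb it was 4970 bp and in genes under 20 kb 1419 bp. Distances of at most 2 kb made up 22.0% of pairs (348), and distances above 100 kb 12.7% (201). For each of the 43 genes with 10 or more peaks, the shortest stretch that held 50% of its peaks was sought. It covered a median of 15.2% of the span (interquartile range 9.29 to 26.0%), from 2.19% in Rere to 40.0% in Prkag2.

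The genes with most peaks differed in how they were filled. In Gse1 (NCBI gene 382034, chr8:120228501-120581383), 35 of the 69 peaks needed a stretch of 131 kb, or 37.2% of the span, and the median distance was 2.22 kb. Its last part held 14 summits, among them those with the highest fold enrichments, 25.1 and 24.7. In Zmiz1 (NCBI gene 328365, chr14:25457875-25666743), the last part held 13 of 43 and the first 4. Nav2 (NCBI gene 78286, chr7:48959063-49610090) had its first summit at 44.2% of the span and 15 of 26 in the last part. Nav1 (NCBI gene 215690, chr1:135434580-135688350) started at 31.9% and had 11 of 26 there. Neither navigator gene had a summit within 5 kb of its 5′ end. Tshz2 was the reverse, with 6 of 22 summits in the first part and 0 in the last.

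Some genes held tight groups. Grk5 (chr19:60889560-61095968), which encodes a kinase of G protein-coupled receptors, held all 8 summits between 17.4% and 21.3% of its span, at a median distance of 0.843 kb. They stood at 4.63 to 15.2-fold on 14 to 58 fragments. Robo1 (1020 kb), a receptor for Slit guidance proteins, had 7 of 8 summits in the last part and 1 at 62.3% of the span, beside an annotated internal start. Rere (340 kb), a transcriptional corepressor, had 10 of 16 in the last part, of which 8 lay within 7.46 kb. Esr1 (394 kb), the oestrogen receptor alpha gene, had its summits along the whole gene. Its 7 summits lay at 5.64%, 25.5%, 34.2%, 47.1%, 62.2%, 82.8% and 98.9% of the span, with fold enrichments of 4.73, 5.70, 8.97, 3.61, 2.46, 4.38 and 3.77 in that order. The highest Esr1 peak, chr10:4746469-4746766, had an interval of 6.86 to 11.5. Among the other Esr1 peaks it overlapped only that of the 4.73-fold peak (2.62 to 7.98, on 12 fragments).

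**Figure D4:**
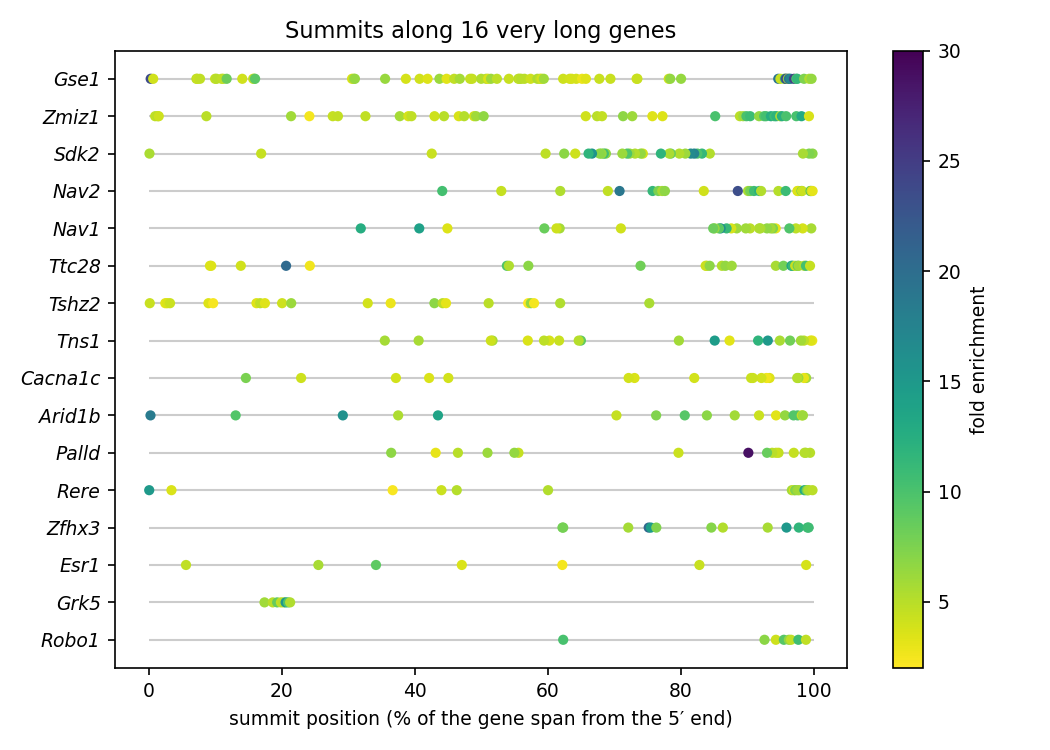
Position of each summit along 16 very long genes (horizontal, % of the span from the 5′ end), coloured by fold enrichment. Nav1, Nav2, Palld, Rere and Robo1 fill the 3′ end, Grk5 holds all its summits between 17.4% and 21.3%, and Esr1 is spread from 5.64% to 98.9%.

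Widths and fold enrichments were close to those of other genes. Members had a median width of 285 bp, with 223 to 409 bp for the middle 50%, against 319 bp (230 to 483 bp) for peaks in genes under 200 kb and 286.5 bp in genes of 100 to 200 kb. The least width in the list, 200 bp, was held by 9.49% of members, against 7.64% of peaks in genes under 200 kb, and a width of 1000 bp or more by 3.44% against 5.66%. The widest, named after their values were seen, were those of Chd9, at 5409 bp, Zfhx3, at 4900 bp, and Zfp469, at 4637 bp. The median fold enrichment was 5.40 (4.32 to 6.98), against 5.60 (4.34 to 7.35), on 20 against 22 fragments and a background of 2.45 against 2.63. At or above 10-fold stood 188 members (9.25%, 8.06 to 10.6%), beside the background of 9.50%, so the members' share was near the background. These 188 peaks lay in 106 of the 448 genes (23.7%), a share that was not calculated for shorter genes.

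Of the 6 genes with the highest peaks, only Fbxl17 had its highest peak within 5 kb of a span end. Palld, which encodes an actin-associated scaffold protein, stood highest at 28.8 (95% interval 24.1 to 34.3), on 126 fragments over a background of 3.41. This peak, chr8:61549442-61550371, lay 38.4 kb from the 3′ end. Mgat5, an enzyme that branches N-glycans, stood at 25.9 (20.2 to 32.7) on 68 fragments, at chr1:127282746-127283214 and 78.1 kb from the 5′ end. Its other peak stood at 8.22. Gse1 reached 25.1 (18.5 to 33.2) and Nav2 23.3 (17.6 to 30.4), at chr7:49535729-49536070. A further Gse1 peak, chr8:120229056-120230581, stood at 23.7 (17.6 to 31.1) on 49 fragments, only 1.14 kb from the 5′ end. Fbxl17, an F-box protein of ubiquitin ligases, reached 22.5 (16.3 to 30.3) at chr17:63499029-63500340, 4.33 kb from its 5′ end, while its other 3 peaks stood at 5.44 to 5.76. Zfhx3, a zinc finger homeobox factor, reached 20.7 (16.3 to 25.9) at chr8:108792033-108793178. Of its 13 summits 6 were at or above 10-fold. The intervals of these 6 genes overlapped with at least 1 other. Of the 2033 members, 165 (8.12%) had a summit shared with a gene not listed as protein-coding. The share was 4.84% for peaks in genes under 200 kb and 5.74% in genes of 100 to 200 kb. Without peak strands the source of such peaks was not separated.

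Genes were also read by function, from 7 lists, which do not hold every very long gene of a function. The lists were chosen with earlier results of these data known, so the shares and intervals describe the listed genes and no wider class. The share with a peak over all very long genes, 47.4%, and over all autosomal protein-coding genes, 30.1%, is the background of each count, and the genes named are those with most peaks within a list. Among transcription factors, 29 of 35 very long genes held a peak (82.9%, 67.3 to 91.9%), with 192 peaks in all and a median of 6 per gene with a peak. Tshz2 (22), Cux1 (15) and Zfhx3 (13) were among those with most. Of the Tshz2 peaks 0 reached 10-fold, and their median was 4.04. Among chromatin and transcription cofactors it was 7 of 8 (87.5%, 52.9 to 97.8%), with Gse1 (69), Arid1b (17), Rere (16) and Auts2 (14). Arid1b encodes a subunit of the SWI/SNF chromatin remodeller. Among nuclear receptors and their coregulators, 9 of 11 held a peak (81.8%, 52.3 to 94.9%), led by Zmiz1 (43), Med13l (10), Esr1 and Ncoa2 (7 each). Med13l belongs to the Mediator kinase module and had 8 of 10 summits in the last part of its span.

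For genes of the actin, microtubule and spectrin-repeat cytoskeleton the count was 24 of 33 (72.7%, 55.8 to 84.9%), with Nav1, Nav2, Tns1 (21) and Palld (16). Tns1 encodes tensin, which links integrins to actin, and 8 of its summits lay in the last part. Genes of matrix, adhesion and receptor phosphatases stood at 25 of 41 (61.0%, 45.7 to 74.3%), with Sdk2 (31), Adamts2 (11), Ptprm (10) and Robo1 (8). Adamts2 processes procollagen. The list of kinases, phosphodiesterases and receptor signalling genes stood at 29 of 45 (64.4%, 49.8 to 76.8%) but with a median of only 2 peaks. Igf1r (10), Prkce (9), Grk5 (8) and Magi1 (7) held most within this list. Igf1r, the receptor of insulin-like growth factor 1, had its highest peak at its 5′ end, chr7:67952027-67952774, at 13.4-fold on 30 fragments.

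Neuronal synapse and ion channel genes stood lowest of the 7 lists, with 17 of 65 (26.2%, 17.0 to 38.0%). They held 54 peaks, of which 2 were at or above 10-fold (3.70%, beside the background of 9.50%). Cacna1c (17), the pore subunit of the L-type calcium channel of smooth muscle and heart, Cacna1a (8), Asic2 (4) and Kcnq1 (4) held most within this list. Cacna1c alone held 17 of the 54, of which 0 reached 10-fold. The median span of this list, 670 kb, was above that of the transcription factors, 404 kb. The part of transcript abundance in these shares was not tested, and the lists were not chosen independently of earlier results.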

How the data were processed

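The authors deposited 1 peak list for the series. HISAT2 2.2.1, MACS3 3.0.0a7 and build mm10 (GRCm38) are named in the submitters' processing notes, with no settings. The fold enrichment, a ratio over the caller's background, the −log10 p-value, the −log10 q-value and the score of each peak were calculated by the authors and deposited. The largest q-value was 0.0499. Strand was given for 0 peaks.

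Spans came from RefSeq (GRCm38.p6, 49997 genes) and gene strands and sequences from the RefSeq promoter table. Read totals were not used here. The fragment number at each summit was recovered from fold enrichment and p-value with a pseudocount of 1, and 21192 of 21192 peaks matched within a relative tolerance of 1e-05. Intervals of fold enrichment are exact 95% Poisson intervals of that number with the background held fixed. Intervals of shares are 95% Wilson intervals. Both cover counting error only, and PCR copies are counted as if they were independent. In shares of peaks, so are peaks of the same gene, which makes those intervals too narrow if such peaks are alike. The calculation was tested on simulated data. Python 3.11.15, numpy 2.4.6, pandas 2.3.3 and scipy 1.17.1 were used.

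Members and lists were chosen with earlier results of these data known. The 343 list symbols were all found, and the 6 on the X chromosome entered no count. Named genes were the 8 with most peaks, the 6 with the highest fold enrichment, the 5 longest, those of the 3 summits farthest from an end, and up to 4 per list. Genes shown for other reasons were chosen after their values were seen. The values of 1 gene that this rule names are not reported here.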

Additional observations from a re-analysis of the deposited data

How the results depend on the processing

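Of 45 values under alternatives, 30 stayed within the interval of the reported value, or within 1.5 times for counts, and 15 did not. With a −log10 q of at least 10, 777 peaks in 265 genes were left, with a median distance to the nearer end of 36.7 kb, a median width of 339 bp and a median fold enrichment of 7.78, while the share within 5 kb was 19.8%. With a span limit of 300 kb there were 1065 peaks in 234 genes, a share of 16.0% within 5 kb, a distance of 58.3 kb and a spacing of 14206 bp. With a limit of 150 kb the distance was 33.5 kb. The fewer peaks and genes follow from the filters, and the cause of the other moves was not tested. Without the 5 genes with most peaks, which held 195 peaks, the spacing was 12908 bp. The share near an end was 7.13% within 1 kb and 25.9% within 10 kb, by construction. With the 204 widest members left out, by a width limit, the median fold enrichment was 5.32, and the cause was not tested. Under the 6 filters the share within 5 kb stayed 5.21 to 7.09 times that of the zone, and the last of 10 parts of the span held 31.5 to 39.0% of summits. The first part held only 8.87% with a −log10 q of at least 10, against 12.1% among all members with known strand. Under the other filters it held 11.6 to 13.1%. No paired analysis was possible because each group had 1 library. The members rested on as few as 4 fragments, with a median of 20, which limits the precision of single peaks.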

Other observations

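Very long genes outside the rule were also looked at. On the X chromosome, 16 of 45 protein-coding genes of 200 kb or more held a peak (35.6%, 95% Wilson interval 23.2 to 50.2%), with 39 peaks in all. Atg4a (9 peaks), a protease of autophagy, and Nhsl2 (8 peaks) held most, and Mid1, a ubiquitin ligase on microtubules, held 3 with the highest at 11.7-fold. On the autosomes, 54 summits lay in a very long gene and in another protein-coding gene at once.

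The deepest member was a peak of Celf2, an RNA-binding splicing factor, at chr2:7076098-7076434. It rested on 164 fragments but stood at only 3.96-fold (95% interval 3.38 to 4.61), on a background of 40.7. The lowest fold enrichment among the members, 1.80 (1.33 to 2.40), was that of a peak in Fbn1, which encodes the matrix protein fibrillin-1, at 99.6% of its span.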
